A study of Bombyx mori with 12 samples.

Results

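The silkworm genes that the array names allatostatin_A, Allatostatin-C, allatotropin and BAR were followed across 12 arrays of larval tissues of Bombyx mori. They were found by those sequence names, with or without the ending that marks a coding sequence, whatever their signal. They are 4 of the 346 genes to which the array gives a gene name, and they were represented by 10 of its 42564 probes: allatostatin A, allatostatin C and allatotropin by 2 probes each and BAR by 4. RefSeq lists BAR as a synonym of Alstr, the allatostatin receptor gene.

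Allatostatins and allatotropin are neuropeptides named for their action on the corpora allata, the endocrine glands that make juvenile hormone. A-type allatostatins were described as inhibitors of juvenile hormone synthesis in cockroaches. C-type allatostatin was described as such an inhibitor in the moth Manduca sexta, where allatotropin was found to stimulate the synthesis. Both classes of allatostatin are also known from nerve cells and from endocrine cells of the insect gut, where they act on muscle and secretion. A-type allatostatins act through G protein-coupled receptors, of which BAR is one.

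Cy3-labelled RNA from larvae of the commercial strain Kinsyu x Showa, reared on mulberry leaves at 25 °C, was hybridised to a custom 1-colour Agilent array. The complex of corpora cardiaca and corpora allata (CC-CA) of 4th instar larvae on day 2 gave 2 arrays, from independent experiments per the submitters, and that of 5th instar larvae on day 4 gave 1. Salivary gland, midgut, brain, epidermis, prothoracic gland, fat body and Malpighian tubule of 4th instar larvae on day 2 gave 1 array each, as did ovary and testis of 5th instar larvae on day 10, which was 3 days into wandering. The CC-CA joins the corpora allata to the corpora cardiaca, a neurohaemal organ that receives axons from the brain, so its RNA came from more than 1 cell type. No genetic or chemical treatment was applied, and the labels give no number of animals behind a sample.

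Levels below are log2 of the processed spot intensity minus the 75th percentile of the array, so that 0 is the level of a spot brighter than most. A spot was taken as measured where the scanner software marked it well above background. The probe with the highest mean level represents its gene. Differences between groups were tested with limma over the 38086 probes with such a signal throughout at least 1 group. They were called at a log2 difference of 1 or more and a Benjamini-Hochberg adjusted p under 0.05. Only the 4th instar CC-CA had replicates, 2 arrays, so each single array was assumed to vary as they did, and all p-values rest on that assumption. Levels of different probes cannot be set against each other. In such tissue samples, fewer cells of a type and less RNA per cell cannot be told apart.

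The 75th percentile of the processed intensity lay between 1402 in fat body and 5827 in ovary, and between 60.4% and 78.6% of spots were well above background. The 2 replicate arrays correlated at r = 0.980 across probes, which are not independent of each other. For the labels that a named marker could check, the adipokinetic hormone genes AKH-1 and AKH-2 and the juvenile hormone acid methyltransferase gene Jhamt were highest in CC-CA, eclosion hormone (EH) and corazonin in brain, the adipokinetic hormone receptor AKHR in fat body and the diuretic hormone receptor DHR in Malpighian tubule. Of 109 BmorCPR cuticular protein genes, 43 were highest in epidermis. Eclosion hormone, at 3.53 in brain, was not well above background on any CC-CA array.

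Allatostatin A was a brain transcript, with a lower level in the CC-CA. The brain array stood at 2.90 on the representative probe, CUST_853. The CC-CA stood at -4.70 and -4.69 on the 4th instar arrays and at -3.08 on the 5th instar array. Ovary followed at -5.96. These 5 arrays were well above background and the other 7 were not. The levels of the latter were -6.92 in fat body, -7.68 in testis, -7.85 in prothoracic gland, -8.00 in midgut, -8.02 in epidermis, -8.36 in Malpighian tubule and -8.41 in salivary gland. No other array came near the brain, and both CC-CA replicates lay at nearly 1 level.

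Brain exceeded all 10 other groups by limma's adjusted p, where over these 10 comparisons together 10% of all probe tests called brain higher. Allatostatin A was 63.5-fold higher in brain than in the 5th instar CC-CA (log2 difference 5.99 ± 0.55 (SE), adjusted p = 0.000175). Against the 4th instar CC-CA the ratio was 194-fold (7.60 on the log2 scale, adjusted p = 1.4e-05 in limma's fit), and against ovary 467-fold. For the 7 tissues below background only bounds can be given, from at least 243-fold over fat body to at least 1357-fold over testis. For a bound, the mean of the brighter group was set against a floor on the dim array, which was its lowest measured signal or the dim spot's own signal if that was higher. The lowest measured signal differed between these arrays, from -5.02 in fat body to -7.50 in testis, so the bounds do not rank the tissues.

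On CUST_853 the 4th instar CC-CA was called higher than 7 of the 9 tissues in allatostatin A. All were tissues below background, and the bounds were at least 1.25-fold over fat body, 2.40-fold over prothoracic gland, 2.65-fold over midgut, 2.72-fold over epidermis, 3.48-fold over salivary gland, 3.62-fold over Malpighian tubule and 7.0-fold over testis. These bounds, too, follow the floor of each array and do not rank the tissues. Shares of all probes called higher in the CC-CA were 13.7% against prothoracic gland, 13.1% against fat body, 15.7% against midgut, 8.38% against epidermis, 16.3% against Malpighian tubule, 16.6% against salivary gland and 19.1% against testis. With dim signals set to the lowest signal well above background of their array, 3 of these 7 calls were left, those against Malpighian tubule, salivary gland and testis, and with normexp background correction 1 was left, that against testis. With all 3 CC-CA arrays as 1 group, the calls against prothoracic gland (adjusted p = 0.0928), fat body (0.107), midgut (0.0503) and epidermis (0.0800, limma) were lost. With the mean over both probes the call against fat body was lost (log2 1.26, adjusted p = 0.0858 by limma). The CC-CA and ovary, the next below it, differed 2.41-fold and were not separated by limma (adjusted p = 0.110). The 5th instar CC-CA was called higher than all tissues except brain, 7.36-fold above ovary (adjusted p = 0.00731 in limma's fit) and at least 3.83-fold above fat body. Over the 9 tissues together, 13.3% of all probe tests called the 5th instar CC-CA higher.

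The second allatostatin A probe, CUST_854, showed the same order at the top. It stood at 1.51 in brain and -4.55 in the 5th instar CC-CA, both well above background. The 4th instar CC-CA arrays were at -6.36 and -6.39 on it and were not well above background. Detection of the transcript there, and the calls of the 4th instar CC-CA above other tissues, thus rest on 1 of the 2 probes. The remaining arrays, all below background, lay between -8.85 in testis and -6.67 in fat body. Brain was at least 217-fold above the 4th instar CC-CA on this probe, and the 2 probes correlated at r = 0.974 over the 11 groups. Corazonin, the brain marker that the CC-CA arrays did hold, was at -2.08 and -2.03 in the 4th instar CC-CA and -1.19 in the 5th, against 3.20 in brain. Its part in the allatostatin A signal of the CC-CA was not tested.

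Allatostatin C was high in midgut and brain. On CUST_1013 it stood at 1.43 in midgut, -0.11 in brain and -6.27 in the 5th instar CC-CA, the only arrays well above background. The 4th instar CC-CA arrays were at -7.88 and -7.48. The remaining levels were -6.94 in prothoracic gland, -6.41 in fat body, -8.36 in epidermis, -8.76 in Malpighian tubule, -8.74 in salivary gland, -9.74 in testis and -9.57 in ovary, all below background. Midgut and brain thus stood apart from all other arrays by a wide gap.

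Midgut exceeded brain 2.92-fold in allatostatin C, a difference that limma did not call (log2 1.55 ± 0.57 (SE), adjusted p = 0.0820). With robust moderation it was called (adjusted p = 0.0373), and over all settings tried its adjusted p ran from 0.0164 to 0.196. Midgut was called above the other 9 groups, where over its 10 comparisons together 11.4% of all probe tests called midgut higher. It was 209-fold above the 5th instar CC-CA and at least 248-fold above the 4th instar CC-CA (adjusted p = 4.39e-06 in limma's fit). Brain was 71.5-fold above the 5th instar CC-CA and at least 84.7-fold above the 4th instar CC-CA (adjusted p = 1.61e-05 in limma's fit). Of all probes, 11.9% were called lower in the 4th instar CC-CA than in midgut and 8.39% lower than in brain.

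CUST_1014, the other allatostatin C probe, was well above background on the same 3 arrays, with 1.56 in midgut, -0.03 in brain and -6.50 in the 5th instar CC-CA. The 4th instar CC-CA arrays were at -7.32 and -7.24, and the rest between -9.61 in testis and -7.10 in fat body. The 2 probes correlated at r = 0.993 over the 11 groups. On CUST_1013 the fit also put the 4th instar CC-CA above testis (log2 2.06) and ovary (log2 1.89), but none of these arrays was well above background, so these carry no measured difference.

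Allatotropin, the stimulatory peptide, was hardly detected. Its representative probe CUST_565 was not well above background on any of the 12 arrays and was therefore not tested. Its levels were -8.05 and -8.81 in the 4th instar CC-CA, -9.36 in the 5th, -7.91 in prothoracic gland, -7.88 in brain, -6.98 in fat body, -8.05 in midgut, -8.06 in epidermis, -7.16 in Malpighian tubule, -8.47 in salivary gland, -9.43 in testis and -9.27 in ovary. The second probe, CUST_566, was well above background on 1 array, the replicate 2 of the 4th instar CC-CA, at -5.69. Replicate 1 of the same tissue stood at -8.38 on it, so the 2 experiments disagreed, and the remaining 10 arrays lay between -9.77 in testis and -7.28 in fat body. At these signals a difference in allatotropin between tissues was not detectable.

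**Figure D1:**
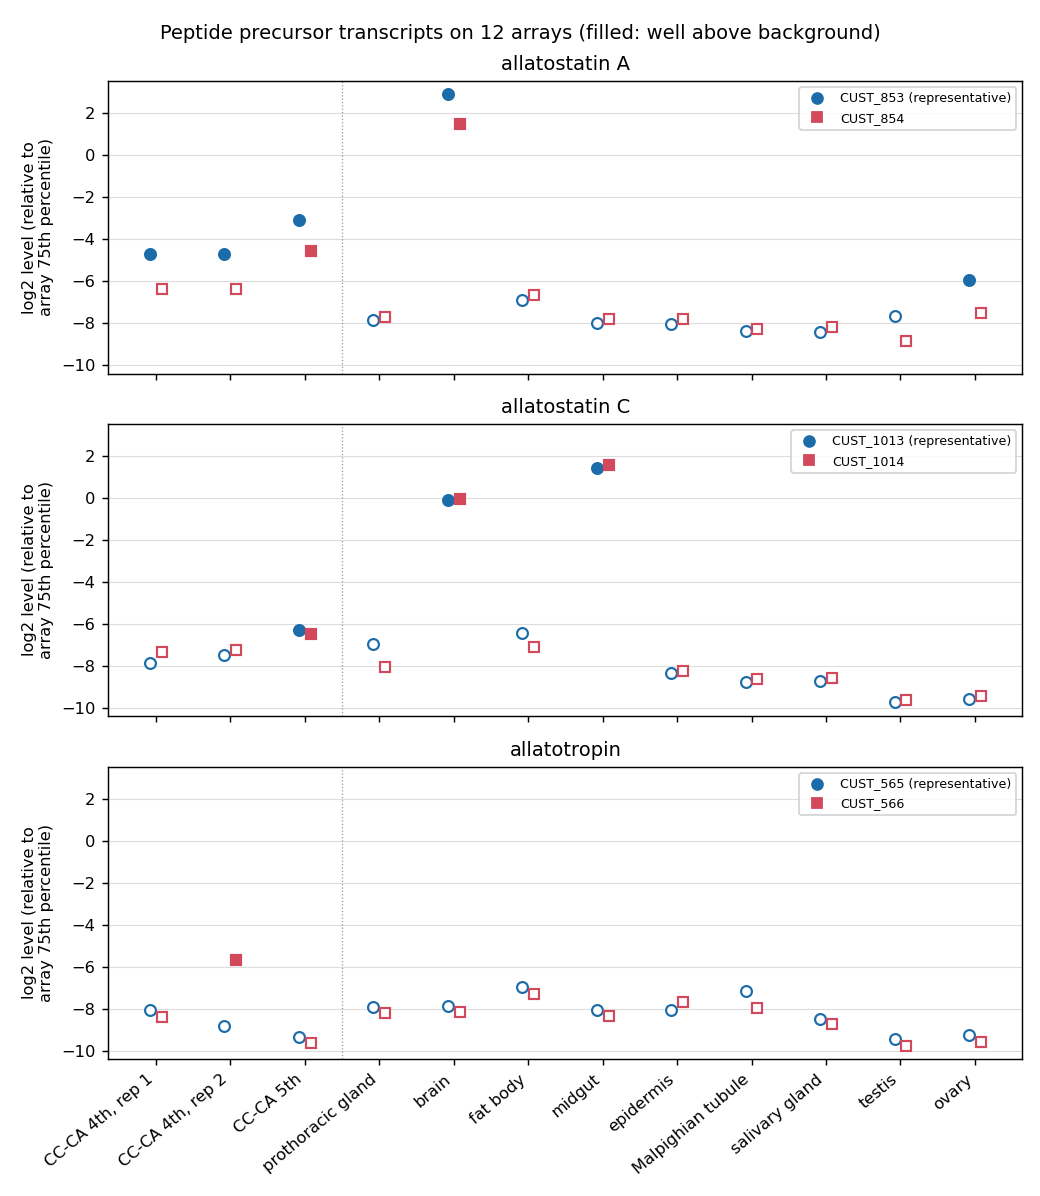
Log2 levels (0 is the array's 75th percentile) for the 2 probes of each peptide gene on the 12 arrays (filled symbols were well above background, open symbols were not). Allatostatin A peaks in brain at 2.90, allatostatin C in midgut at 1.43 and brain at -0.11, and allatotropin has 1 filled symbol, at -5.69.

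The receptor transcript BAR was at modest levels, and its 4 probes did not give 1 order of tissues. On the representative probe CUST_1254 it was highest in salivary gland at -2.97, followed by midgut at -3.26 and brain at -3.74. The 4th instar CC-CA stood at -4.68 and -4.96 and the 5th at -4.90. Epidermis was at -5.24, Malpighian tubule at -5.90, testis at -6.38 and ovary at -6.78. Fat body at -5.08 and prothoracic gland at -5.76 were not well above background. The CC-CA arrays sat in the middle of this range, together at both stages.

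No difference among salivary gland, midgut and brain was called on CUST_1254. Limma's adjusted p was 0.730 for salivary gland against midgut, 0.619 for midgut against brain and 0.385 for salivary gland against brain. With the deposited value table the last of these was called, with brain lower by a log2 difference of -1.81 (adjusted p = 0.0323 by limma). None of the 10 pairs of neighbours in the order was called. Salivary gland was called above the other 8 groups on this probe, where over its 10 comparisons together 9.13% of all probe tests called salivary gland higher, with 3.62-fold over the 4th instar CC-CA and 14.1-fold over ovary.

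The 4th instar CC-CA was called lower than midgut (2.96-fold, adjusted p = 0.0437) and salivary gland (3.62-fold, adjusted p = 0.0240) on CUST_1254, in limma comparisons where 11.9% and 7.05% of all probes were lower. The log2 differences were -1.56 and -1.86, and -1.71 and -2.00 within slide 2, which held replicate 2 and both tissues. It was called higher than testis (log2 1.55 ± 0.49 (SE), adjusted p = 0.0354) and ovary (log2 1.96 ± 0.49 (SE), adjusted p = 0.0233 by limma), where 19.1% and 10.9% of all probes were higher. Testis and ovary were on a slide with no CC-CA array and from a later stage, so tissue, stage and slide cannot be told apart. Over the settings tried, limma's adjusted p ran from 0.0114 to 0.0769 against midgut, from 0.00258 to 0.0858 against testis and from 0.00147 to 0.0854 against ovary, so each of these calls was lost under some setting. The call against salivary gland was lost with the 75th percentile taken over probes detected on all arrays and with all 3 CC-CA arrays as 1 group (adjusted p = 0.0631 by limma in both). It turned its direction with the mean over the 4 probes (log2 0.95, adjusted p = 0.314 by limma) and was called the other way on CUST_433 (log2 2.88, adjusted p = 0.00844 by limma). The 2.12-fold difference from brain was not called (adjusted p = 0.175 in limma's fit).

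The other 3 BAR probes were highest in midgut or brain and did not measure the transcript in salivary gland. CUST_433 stood at -3.00 in midgut, -3.11 in brain, -4.85 in the 5th instar CC-CA and -4.80 and -6.05 in the 4th, the 5 arrays on which it was well above background. Its other 7 arrays lay between -9.13 in ovary and -6.85 in fat body. In salivary gland it was at -8.30, below background, where CUST_1254 had its highest level. Midgut was at least 11.3-fold above salivary gland on CUST_433 (adjusted p = 0.000737 in limma's fit), while on CUST_1254 it was 1.22-fold below. The 4th instar CC-CA was called higher than 6 of the 9 tissues on CUST_433, where 8.38% to 19.1% of all probes were higher. By limma these included prothoracic gland (log2 2.34, adjusted p = 0.0302), epidermis (2.28, 0.0326) and Malpighian tubule (2.86, 0.00760). None of these was called on CUST_1254.

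CUST_434 was at -3.52 in brain, -3.65 in midgut, -5.23 in the 5th instar CC-CA and -5.61 and -6.83 in the 4th. It was also well above background in prothoracic gland, at -4.27, where the other 3 probes were not, and its remaining arrays lay between -9.66 in ovary and -7.34 in fat body. Prothoracic gland thus lay above both 4th instar CC-CA arrays on CUST_434, but below both on CUST_1254 and CUST_433. CUST_1253 was well above background in brain at -5.53, midgut at -5.74 and the 5th instar CC-CA at -5.94 only, with -7.94 and -9.20 in the 4th instar CC-CA and between -9.63 in ovary and -7.32 in fat body elsewhere. Brain and midgut were above the 4th instar CC-CA on all 4 probes and were called so on 3 and 4 of them respectively. On CUST_433 the ratios were 4.98-fold for brain and 5.39-fold for midgut, on CUST_434 6.50-fold and 5.93-fold, and on CUST_1253 at least 1.98-fold and at least 1.72-fold. Over the 11 groups the probes correlated at between r = 0.456, for CUST_1254 with CUST_434, and r = 0.907, for CUST_1253 with CUST_433.

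**Figure D2:**
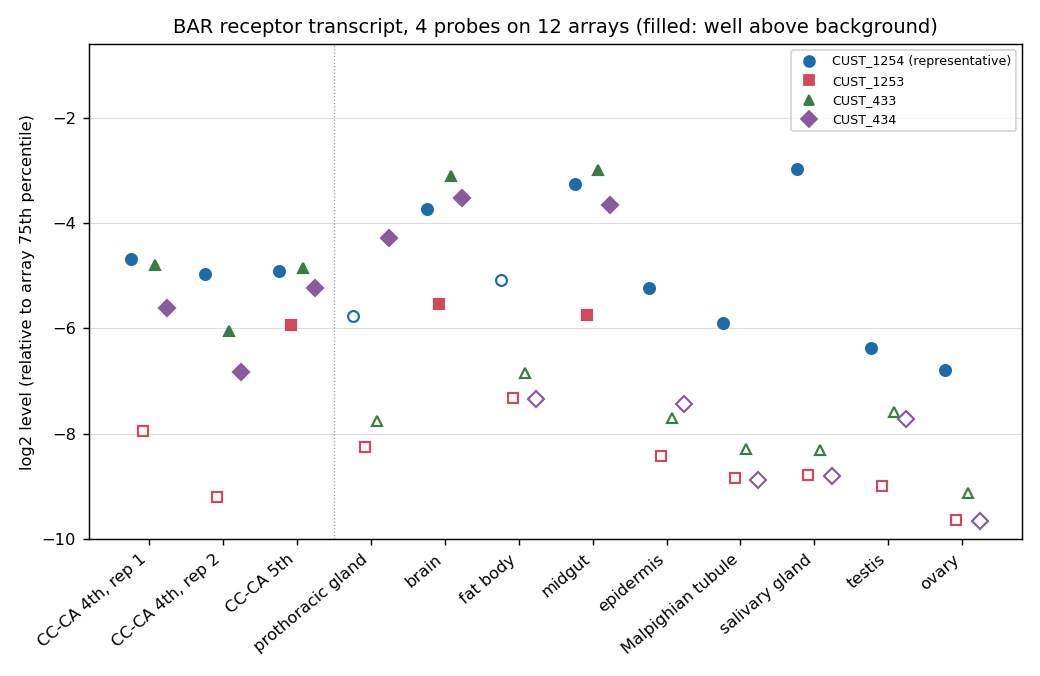
Log2 levels of the 4 BAR probes on the 12 arrays, with 0 at the array's 75th percentile (filled symbols were well above background, open symbols were not). Brain and midgut are filled on all 4 probes, and salivary gland, the highest group on CUST_1254 at -2.97, is open on the other 3.

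Across the 3 tested genes, 11 of the 27 comparisons of the 4th instar CC-CA with a tissue were called higher and 5 lower on the representative probes. The 11 became 3 with normexp, 5 with the floor under dim signals and 3 with all 3 CC-CA arrays as 1 group, and the 5 became 3 with the last of these and with the percentile over probes detected on all arrays. The counts also rose: the 11 became 15 with CUST_433 as the BAR probe and 12 with the deposited value table. The 5 became 6 with normexp and with robust moderation. Allatostatin A gave 7 of the 11, BAR 2 and allatostatin C the 2 that lay below background on both sides. The 5 lower calls were allatostatin A and allatostatin C against brain, allatostatin C and BAR against midgut, and BAR against salivary gland. The last of these was called the other way on CUST_433. Between 8.38% of all probes, against epidermis, and 19.1%, against testis, were called higher in the CC-CA, with 12.1% against brain. Shares of all probes called lower in the CC-CA were 3.35% against prothoracic gland, 8.39% against brain, 14.1% against fat body, 11.9% against midgut, 9.75% against epidermis, 10.8% against Malpighian tubule, 7.05% against salivary gland, 18.5% against testis and 7.5% against ovary. Over all 55 pairs of groups, 74 of the 165 pairs tested for the 3 genes were called with at least 1 side well above background, 29 for allatostatin A, 23 for allatostatin C and 22 for BAR. Of all probe tests over these pairs, 22.7% were called. Both allatostatins had their highest level outside the CC-CA.

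**Figure D3:**
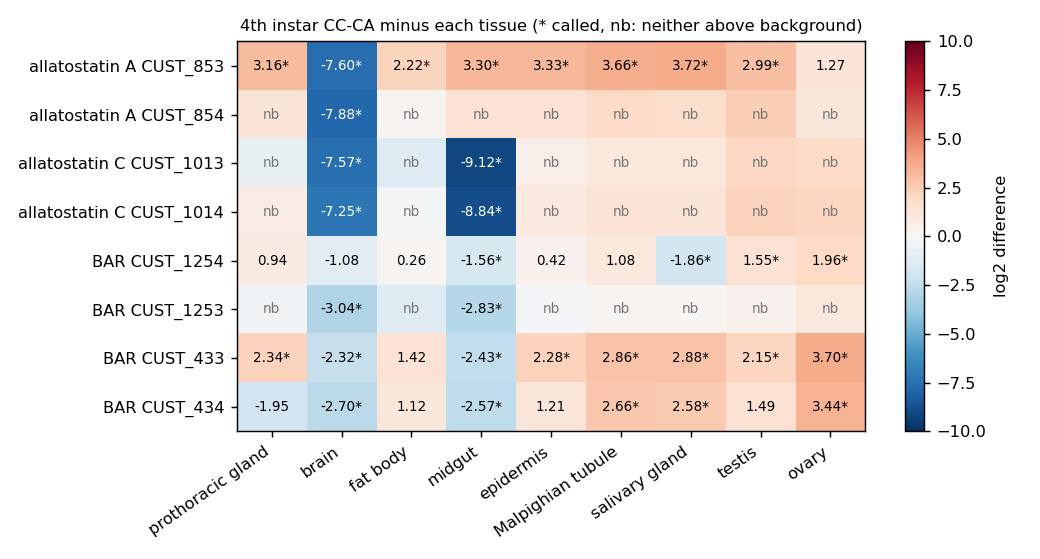
Log2 difference of the 4th instar CC-CA from each of the 9 tissues for the 8 tested probes, in colour and as numbers. Stars mark called differences with at least 1 side well above background, and nb marks pairs with neither side above it. Allatostatin A and C are far below brain on both probes of each, at -7.60 and -7.57 on the representative ones.

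Between the stages of the CC-CA, allatostatin A was higher in the 5th instar on both probes, but no difference in a representative probe was called by limma. Of the CC-CA arrays, allatostatin C was well above background on that of the 5th instar alone. That array also had the lowest floor, -7.39 against -6.11 and -6.92 in the 4th instar, so detection alone shows no stage difference. The test compared the 2 arrays of day 2 of the 4th instar with the 1 array of day 4 of the 5th, over 32105 probes well above background at either stage. Of these, 4.49% were called higher in the 4th instar and 1.25% lower. Of the 3 genes, 0 were called, and 2 had an unadjusted p under 0.05, which 6133 of all probes also had.

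Allatostatin A was 3.06-fold higher in the 5th instar on CUST_853, a log2 difference of -1.61 ± 0.48 (SE) for 4th minus 5th (adjusted p = 0.106 in limma's fit). Replicate 1 gave -1.62 and replicate 2, which shared a slide with the 5th instar array, -1.61. On CUST_854 the difference was -1.82 (adjusted p = 0.0696 by limma) and the bound at least 3.25-fold. With the spread moderated over the probes of this comparison alone, both passed, at adjusted p = 0.0336 and 0.0176 by limma, and robust moderation also called CUST_853 (adjusted p = 0.0249). Corazonin differed by -0.86 ± 0.48 (SE) in the same direction (adjusted p = 0.365 by limma), and its part in the result was not tested.

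Allatostatin C was below background in both 4th instar arrays and at -6.27 in the 5th (log2 -1.41 ± 0.49 (SE), adjusted p = 0.170 by limma). The lowest level well above background was -6.11 on replicate 1, -6.92 on replicate 2 and -7.39 on the 5th instar array. Against the mean of the 4th instar floors the 5th instar was at least 1.19-fold higher. Its level lay below the floor of replicate 1, so against that array alone there is no bound. On CUST_1014 the log2 difference was -0.79 (adjusted p = 0.412 by limma) and the bound at least 1.016-fold. The same limit holds there, since the 5th instar level of -6.50 also lay below the floor of replicate 1. The difference on CUST_1013 shrank to -0.24 with the floor under dim signals and to -0.36 with normexp. The representative BAR probe gave 0.08 ± 0.49 (SE, adjusted p = 0.958 by limma), with 0.22 for replicate 1 and -0.06 for replicate 2.

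The 3 other BAR probes were lower in the 4th instar, by -0.58 on CUST_433 (adjusted p = 0.668), -0.99 on CUST_434 (adjusted p = 0.413) and -2.63 ± 0.61 (SE) on CUST_1253 (adjusted p = 0.0430, limma). The last was the 1 member probe of 8 that was called. It was below background in both 4th instar arrays, so the bound was at least 1.49-fold. The replicates spread widely on these 3 probes: on CUST_433 replicate 1 gave 0.05 and replicate 2 gave -1.20, and on CUST_1253 they gave -2.00 and -3.26.

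**Figure D4:**
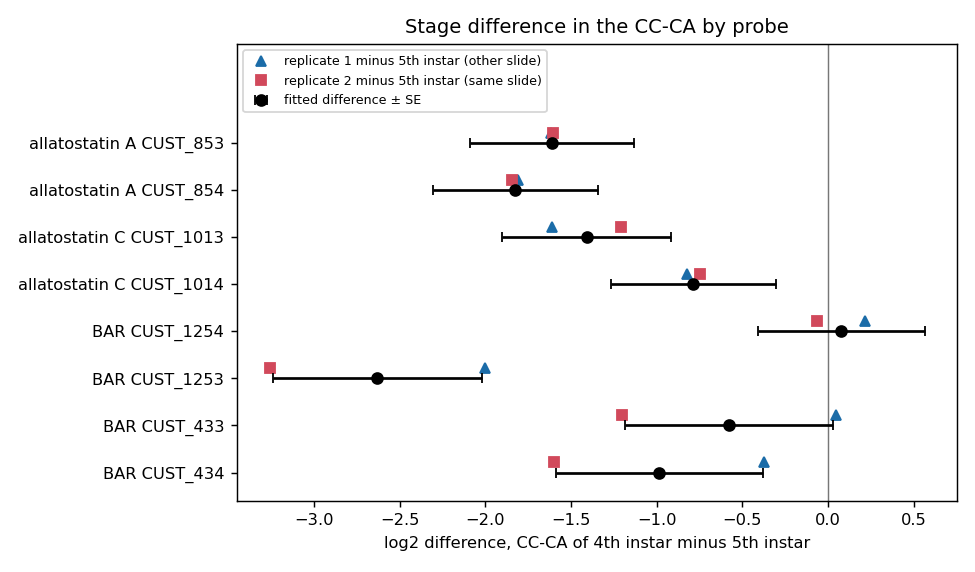
Log2 difference of the CC-CA of the 4th instar from that of the 5th for the 8 tested probes, with the fitted difference and its SE (black) and each replicate of the 4th instar minus the 5th instar array (coloured). The allatostatin probes lie between -1.82 and -0.79, and the BAR probes between -2.63 and 0.08.

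A fixed list of names for juvenile hormone synthesis, breakdown and response matched 9 genes on the array, and 8 were tested between the stages. Jhamt was the only synthesis gene among the 9 and Kr-h1 the only response gene. The rest were the esterase and epoxide hydrolase genes of breakdown. Jhamt, whose enzyme acts at a late step of juvenile hormone synthesis, was higher in the 4th instar CC-CA by 3.79 ± 0.49 (SE) on the log2 scale (adjusted p = 0.00339 by limma), with 2.39 and 2.08 in the 4th instar and -1.55 in the 5th. JHEH1, a juvenile hormone epoxide hydrolase named after its values were seen, was the other called gene of the list, at 2.18. None was called lower, and the median was 0.39 against 0.03 over all tested probes. Kr-h1, the transcription factor induced by the hormone, differed by 0.66 ± 0.48 (SE, adjusted p = 0.503 by limma). In the same comparison allatostatin A, which was not called, differed by -1.61 on the log2 scale. Of all 32105 tested probes, 15598 also had a negative difference. A link between allatostatin A and Jhamt was not tested.

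Of the 40 BNGR genes, which encode neuropeptide receptors of the same broad class as BAR, 16 were tested between the stages. None was called in either direction, with a median of -0.06. Against brain 34 were tested, of which 3 were called higher and 9 lower in the 4th instar CC-CA (12.1% and 8.39% of all probes), with a median of -0.55 against -0.22 over all probes. Against midgut 3 were higher and 12 lower (15.7% and 11.9% of all probes), with a median of -0.94 against -0.14. BAR on its representative probe was at -1.08 and -1.56 in these comparisons. The other tissues did not all lean this way. The BNGR medians were -0.80 against fat body, 0.05 against Malpighian tubule, 0.10 against epidermis and 0.56 against prothoracic gland. Over all probes the medians were -0.19, -0.04, -0.14 and -0.27 in the same order. Those of the BNGR genes were 0.69 against salivary gland, 0.74 against testis and 0.82 against ovary. Over all probes these were -0.01, 0.19 and -0.12. A signal in any 1 group sufficed for testing, so a gene could be tested through the other tissue alone.

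Among 286 named genes, the tissue profile most like that of allatostatin A belonged to corazonin, at r = 0.970 over the 11 groups. It was followed by Ase at r = 0.938 and SIFamide, a neuropeptide, at r = 0.922. All 3 had their highest level in brain, at 3.20, -1.82 and 1.19. Without brain the correlations were 0.971, 0.723 and 0.843. The profiles share their arrays, and most of their low points lie below background.

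The profiles nearest to allatostatin C were the receptor gene BNGR-A12 at r = 0.934, Bm-calcitonin at r = 0.926 and CCHamide, a peptide known from brain and gut of insects, at r = 0.919. BNGR-A12 and CCHamide were highest in midgut, at -4.02 and -4.31, closely followed by brain at -4.12 and -4.55. Bm-calcitonin was at 0.38 in brain and -1.44 in midgut. Without midgut the correlations were 0.889, 0.906 and 0.866. BNGR-A12 and CCHamide were well above background in 2 groups each. For BAR the answer depended on the probe. CUST_1254 was nearest to the cuticular protein gene BmorCPR129 at r = 0.803, BNGR-A5 at r = 0.759 and JHE-r1 at r = 0.673, of which the last 2 were highest in salivary gland. Without salivary gland these were 0.788, 0.634 and 0.477. BmorCPR129 and JHE-r1 were well above background in only 1 group each, so most of their points lie below it. CUST_433, looked at after its values were seen, was nearest to BNGR-A12 at r = 0.858, Bm-calcitonin at r = 0.831 and Myosuppressin, an inhibitor of gut muscle contraction, at r = 0.740. Without midgut these were 0.787, 0.756 and 0.679. No profile was sought for allatotropin.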

How the data were processed

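Arrays were scanned at 2 gains, per the file headers, and extracted with Agilent Feature Extraction, version 9.5.3.1 per the submitters' processing notes. The deposited processed intensity is background-subtracted and was not normalised between arrays. The authors' value table holds intensity on a linear scale, and each column is the processed intensity of its array divided by 1 constant. What the constant is, and so the centring, stays unknown. Its column medians were 5.50 (testis), 7.26 (fat body), 7.33 (midgut), 7.71 (ovary), 7.82 (epidermis), 7.93 (brain), 8.81 (Malpighian tubule), 9.43 (prothoracic gland), 10.3 (salivary gland), 10.4 and 10.6 (4th instar CC-CA) and 11.1 (5th instar CC-CA). The deposited flag columns for outliers and for signal well above background were used as other values.

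From these, log2 of the processed intensity was computed and centred on its 75th percentile among the 43803 spots that are no controls. Spots flagged as outliers were left out and spots of a probe averaged, which left 42340 of 42564 probes. A limma 3.58.1 fit (R 4.3.3) estimated 11 group means from 12 arrays, with 1 residual degree of freedom and a prior worth 7.39. All pairs of groups were contrasted, with Benjamini-Hochberg adjustment over the tested probes of each contrast. In simulated data for brain minus 4th instar CC-CA (38086 probes), a log2 change of 2 was called for 14% of 50 planted probes, 4 for 96%, and 6 and 8 for 100%, and 27 unchanged probes were called. The simulated spread came from the fit's own prior, was equal on all arrays, and few probes were changed. The simulation therefore cannot check the assumption about single arrays, and its rates need not hold for these data. The number of arrays limits the precision.

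Slide 1 carried brain, fat body, prothoracic gland and CC-CA replicate 1, and slide 2 carried salivary gland, midgut, CC-CA replicate 2 and the CC-CA of the 5th instar. Slide 3 carried the rest, so tissue and slide cannot be told apart there. The same holds for single arrays on different slides, such as brain against midgut, salivary gland or the CC-CA of the 5th instar. With slide as a block no residual freedom was left, so differences within slides were used.

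A gene is represented by its probe with the highest mean, and the 3 named genes with the most similar profile are given for each. From the juvenile hormone list Jhamt and Kr-h1 are named, and from the BNGR list any gene called between stages. The genes and lists were chosen with earlier results of these data known. Plots were drawn with matplotlib 3.10.9.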

Additional observations from a re-analysis of the deposited data

How the results depend on the processing

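Of the 3 tested genes' comparisons of the 4th instar CC-CA with tissues, 11 were called higher, and this became 3 with normexp background correction, 5 with dim signals raised to a floor and 3 with all 3 CC-CA arrays as 1 group. The 11 rose to 15 with CUST_433 as the BAR probe and to 12 with the deposited value table. The 5 lower calls became 3 with the 75th percentile taken over the probes detected on all arrays and 3 with all CC-CA arrays as 1 group. They became 6 with normexp and with robust moderation. The stage comparison called 0 genes, and 1 (allatostatin A) with robust moderation or with the spread moderated over its own probes. The count of called pairs of groups was 74 and ran from 55 to 83. Signs changed as follows. Allatostatin A in CC-CA minus fat body was -0.077 with normexp. BAR between the stages was -0.28 with quantile normalization, -0.22 with the deposited value table, -1.03 as a mean over its probes, -0.58 on CUST_433 and -0.06 without 4th instar CC-CA replicate 1, which is also the value within slide 2. In CC-CA minus other tissues, BAR was -0.0022 for prothoracic gland and -0.34 for fat body with quantile normalization, -0.65 for fat body and -0.18 for epidermis with normexp, and 0.95 (mean over probes) and 2.88 (CUST_433) for salivary gland. Midgut minus salivary gland was 3.30 (mean) and 5.31 (CUST_433), and brain minus salivary gland 3.24 and 5.19. The last 2 pairs show that probes of 1 gene disagree, and the cause of the other changes was not tested. The settings with CUST_433, with normexp (on median spot signals) and with the spread of the stage probes were chosen after seeing the data. The median stage difference over all probes was 0.03, and -0.12 with quantile normalization, -0.27 with the value table and 0.11 with the percentile over probes detected on all arrays. Restricting to probes well above background on all 12 arrays gave no value, since no member probe was among them. Leaving out either CC-CA replicate left no residual freedom and so gave values without a test. No paired analysis was possible because the groups share fewer than 2 replicate numbers.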
